A study of Mus musculus with 9 samples.

Results

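The genes described here are 10 marker genes of the cells that border the fluid spaces of the brain: 7 genes of the motile cilia of ependymal cells (Foxj1, Hydin, Ccdc153, Tmem212, Rsph1, Dnah12 and Dynlrb2) and 3 genes of the choroid plexus (Ttr, Folr1 and Kl). They were found by symbol in a table of 55335 rows, and all 10 were present. Of these, 9 held enough counts to enter the test, together with 21765 genes in all, and Tmem212 did not. The counts came from bulk RNA of the prelimbic cortex, a part of the medial prefrontal cortex, taken on day 14 after surgery from 3 groups with 3 libraries each. The SNI/R-HNK mice had a spared nerve injury, a partial cut of the sciatic nerve's branches used as a model of neuropathic pain, and received R-HNK, the R form of hydroxynorketamine (a metabolite of ketamine), at 10 mg/kg. The SNI/saline mice had the same injury and received saline, and the Sham/saline mice had sham surgery and saline. Strain, sex, age and the times of dosing are not given in the sources used here. The labels number the libraries 1 to 3 in each group and do not say whether each came from 1 animal. The p-values therefore measure the spread between these samples, which are called mice here.

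Ependymal cells line the ventricles and carry tufts of motile cilia that move the cerebrospinal fluid. FOXJ1 is the transcription factor that switches on the genes of motile cilia, in concert with factors of the RFX family. The beating core of the cilium, the axoneme, holds dynein arms as motors, radial spokes and a central pair of microtubules. The choroid plexus is a folded epithelium inside the ventricles that secretes the cerebrospinal fluid. Neither tissue belongs to the cortex, so these genes were read here library by library.

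The promoters of 3 of the cilia genes are shown first because they hold the core letters of the site that RFX factors bind, GTTGCC on either strand. RefSeq promoter windows on GRCm38.p6, which run from 250 bases before to 50 bases after the start site, were at hand for 5 of the 7 cilia genes and for Kl. The sequences are written 5′ to 3′ on the gene's strand, with the matched letters in capitals. The Hydin window lies at chr8:110266727-110267026 on the plus strand, the Ccdc153 window at chr9:44240427-44240726 on the plus strand and the Dynlrb2 window at chr8:116504765-116505064 on the plus strand.
Hydin: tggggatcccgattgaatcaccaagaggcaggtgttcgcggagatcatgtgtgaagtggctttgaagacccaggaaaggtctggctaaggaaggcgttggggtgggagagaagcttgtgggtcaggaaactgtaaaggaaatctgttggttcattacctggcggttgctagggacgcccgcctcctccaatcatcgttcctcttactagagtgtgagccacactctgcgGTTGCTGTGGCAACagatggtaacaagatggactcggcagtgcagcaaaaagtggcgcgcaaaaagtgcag
Ccdc153: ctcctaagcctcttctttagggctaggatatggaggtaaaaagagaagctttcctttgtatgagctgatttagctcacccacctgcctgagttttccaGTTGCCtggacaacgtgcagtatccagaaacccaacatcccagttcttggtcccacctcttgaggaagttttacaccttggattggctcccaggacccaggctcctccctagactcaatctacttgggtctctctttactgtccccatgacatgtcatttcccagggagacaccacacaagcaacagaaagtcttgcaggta
Dynlrb2: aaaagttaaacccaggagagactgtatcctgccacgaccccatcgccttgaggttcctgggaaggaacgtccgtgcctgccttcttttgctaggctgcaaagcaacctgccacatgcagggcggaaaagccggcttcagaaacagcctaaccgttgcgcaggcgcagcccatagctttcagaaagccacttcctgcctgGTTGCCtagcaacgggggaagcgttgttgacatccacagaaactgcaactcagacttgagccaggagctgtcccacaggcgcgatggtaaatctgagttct

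The core letters began 152 bases before the start site in Ccdc153 and 51 bases before it in Dynlrb2. In Hydin the capitals mark the longer palindromic form of the RFX site (the X-box, both strands searched), which contains the core letters on its minus strand and begins 21 bases before the start site. The core letters occurred in 3 of 5 windows of the cilia genes, in 43 of 104 windows of other motile cilia genes (41.3%) and in 12.5% of all 32851 windows of the same length. The longer form with this fixed gap occurred in 1 of the 5, in 20 of the 104 (19.2%) and in 2.17% of all windows. Forms with another gap were not counted. The Dynlrb2 window holds a similar inverted repeat with a shorter gap, so these shares do not cover every X-box. The forkhead letters GTAAACA, of the kind that FOXJ1 binds, were in 0 of the 5 windows, in 6 of the 104 (5.77%) and in 3.65% of all. The 6th window with an entry, that of Kl, held none of the 3 motifs. These matches describe letters in a window and were not tested for binding.

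Library totals ran from 53624337 to 73586375 counts. Levels are in CPM, counts-per-million values with TMM-scaled library sizes, and a gene passed a comparison at an adjusted p under 0.05 from edgeR's quasi-likelihood test over all genes. All 9 libraries carried cortical excitatory neuron genes, whose 10 members summed to 5025.62 to 6294.72 CPM. Markers of striatal medium spiny neurons, which lie below the cortex next to the lateral ventricle, separated the libraries. Their 15 genes summed to 996 and 1366 CPM in SNI/R-HNK replicates 1 and 3 and to 2050 and 1960 CPM in Sham/saline replicates 2 and 3, against 449 to 506 CPM in the other 5 libraries, which include all 3 SNI/saline mice. In bulk tissue, fewer cells of a type and less RNA per cell cannot be told apart.

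**Figure D1:**
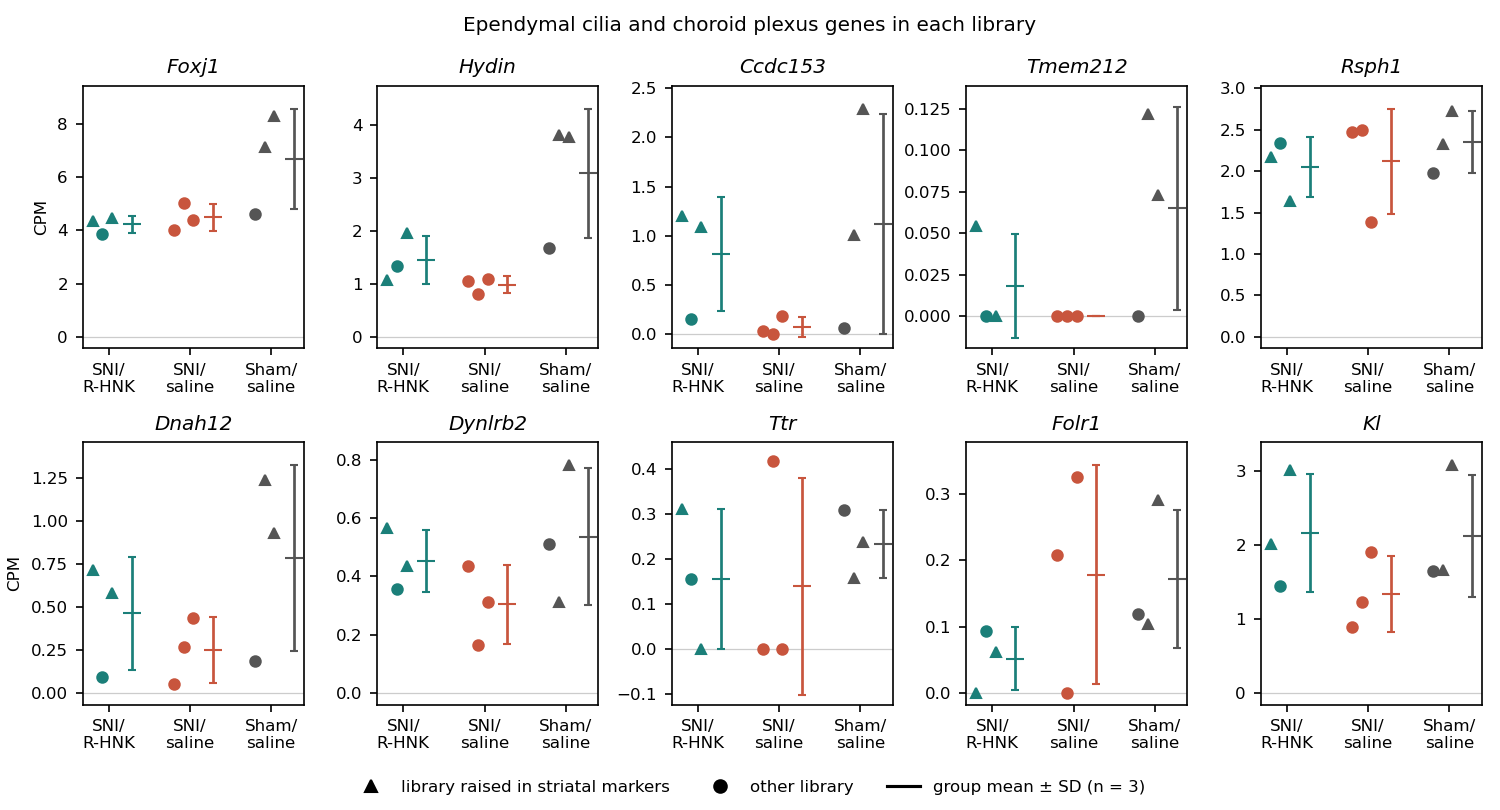
Levels of the 10 genes in CPM (vertical axes, each with its own scale) in the 9 libraries, grouped as SNI/R-HNK, SNI/saline and Sham/saline; triangles are the 4 libraries raised in striatal markers, circles the other 5, and bars the group mean ± SD (n = 3). Hydin and Foxj1 stand highest in Sham/saline replicates 2 and 3, Ccdc153 and Dnah12 are higher in all 4 triangles than in any circle, and Ttr and Folr1 stay under 0.5 CPM in every library.

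Cilia genes were present at low levels and differed in how they spread over the libraries. Per length, Foxj1 was the highest of the 10, with a mean level of 1.95 CPM per kilobase of exon over the 9 libraries. Rsph1 followed at 1.58 CPM per kilobase and Dynlrb2 at 0.776. Ccdc153 measured 0.330, Hydin 0.102, Dnah12 0.0416 and Tmem212 0.0386 CPM per kilobase. On this scale the long genes Hydin and Dnah12 thus lay well below Foxj1 and Rsph1.

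Foxj1, the regulator of motile ciliogenesis, measured 4.34, 3.87 and 4.47 CPM in SNI/R-HNK replicates 1, 2 and 3. It measured 4.02, 5.03 and 4.38 CPM in the SNI/saline mice. It measured 4.60, 7.14 and 8.28 CPM in the Sham/saline mice. Sham/saline replicates 2 and 3 stood above all other libraries, while Sham/saline replicate 1 lay inside the range of the injured mice. Group means were 4.22 ± 0.313 CPM in SNI/R-HNK mice, 4.48 ± 0.514 CPM in SNI/saline mice and 6.67 ± 1.88 CPM in Sham/saline mice (SD, n = 3 each).

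Hydin encodes a very large protein of the central pair, and its loss in mice causes hydrocephalus. Its gene lies on chromosome 8 from 110266977 to 110610253 (GRCm38, the mm10 build that the submitters name). Hydin measured 1.07, 1.35 and 1.95 CPM in the SNI/R-HNK mice and 1.06, 0.80 and 1.09 CPM in the SNI/saline mice. It measured 1.68, 3.81 and 3.77 CPM in the Sham/saline mice. The SNI/saline and Sham/saline groups did not overlap, and the SNI/R-HNK group overlapped with both. The other gene that overlaps a Hydin exon, Gm26832 on the opposite strand, had 4 counts in 1 Sham/saline library and 0 elsewhere.

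Ccdc153 is a coiled-coil gene used as a marker of ependymal cells. It had 89, 10 and 70 counts in the SNI/R-HNK mice, 2, 0 and 12 counts in the SNI/saline mice and 4, 58 and 126 counts in the Sham/saline mice. In CPM the 4 libraries raised in striatal markers held 1.01 to 2.29 and the other 5 held 0 to 0.187, with no overlap. Tmem212, a membrane protein gene that also marks ependymal cells, had 4 counts in SNI/R-HNK replicate 1, and 7 and 4 counts in Sham/saline replicates 2 and 3. It was listed at 0 in the other 6 libraries, where a count of 0 allows up to 0.0464 to 0.0522 CPM (3 counts), which covers counting error only. All 3 libraries with Tmem212 counts were among the 4 raised in striatal markers.

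Dnah12 encodes a heavy chain of the inner dynein arms. It measured 0.716, 0.0929 and 0.578 CPM in the SNI/R-HNK mice, 0.0522, 0.267 and 0.435 CPM in the SNI/saline mice and 0.188, 1.24 and 0.928 CPM in the Sham/saline mice. The 4 libraries raised in striatal markers again lay above the other 5, at 0.578 to 1.24 CPM against 0.0522 to 0.435 CPM. Ccdc153 and Dnah12 were thus 2 of 6 tested cilia genes with this separation, which 5.12% of all tested genes had. Foxj1 and Hydin did not have it, since SNI/R-HNK replicates 1 and 3 held 4.34 and 4.47 CPM of Foxj1 and 1.07 and 1.95 CPM of Hydin. The other 5 libraries held 3.87 to 5.03 CPM of Foxj1 and 0.80 to 1.68 CPM of Hydin.

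The remaining pair of cilia genes did not follow this pattern. Rsph1, a protein of the radial spoke head, measured 2.17, 2.34 and 1.64 CPM in the SNI/R-HNK mice, 2.47, 2.50 and 1.38 CPM in the SNI/saline mice and 1.98, 2.33 and 2.73 CPM in the Sham/saline mice, with all 3 groups overlapping. Dynlrb2, a light chain of dynein motors, measured 0.567, 0.356 and 0.437 CPM in the SNI/R-HNK mice, 0.435, 0.167 and 0.311 CPM in the SNI/saline mice and 0.513, 0.313 and 0.782 CPM in the Sham/saline mice. Its groups overlapped as well. Its close relative Dynlrb1 averaged 98.1 CPM, and how the authors counted reads shared by both was not examined.

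Of the choroid plexus genes, Ttr and Folr1 were close to the limit of detection, while Kl had 51 to 193 counts in every library. Ttr encodes transthyretin, the carrier of thyroid hormone in the cerebrospinal fluid, and is among the most abundant transcripts of choroid plexus epithelium. It had 23, 10 and 0 counts in the SNI/R-HNK mice, 0, 25 and 0 counts in the SNI/saline mice and 18, 9 and 13 counts in the Sham/saline mice. The highest value, in SNI/saline replicate 2, was 0.417 CPM with an exact 95% Poisson interval of 0.270 to 0.615 CPM for counting error only. The 3 libraries at 0 comprised SNI/saline replicates 1 and 3 and SNI/R-HNK replicate 3. Of 1463 genes with a mean count near that of Ttr, 5.67% had at least 3 libraries at 0, as Ttr did, and 48.6% had at least 1.

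Folr1 encodes the folate receptor that moves folate into the cerebrospinal fluid. It had 0, 6 and 4 counts in the SNI/R-HNK mice, 12, 0 and 21 counts in the SNI/saline mice and 7, 6 and 16 counts in the Sham/saline mice. The libraries at 0 for Folr1 (SNI/R-HNK replicate 1 and SNI/saline replicate 2) had the highest Ttr counts of their groups, and over the 9 libraries the log2 CPM of both genes had a Pearson r of -0.52, the lowest of the 36 pairs of tested genes. This r rested on 0 to 25 counts of Ttr and 0 to 21 counts of Folr1 per library, and is a description with no test. The Folr1 paralog Folr2 had at most 14 counts in any library.

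Kl encodes Klotho, which the choroid plexus and the kidney make and which acts as a co-receptor for a fibroblast growth factor hormone. It measured 2.01, 1.44 and 3.01 CPM in the SNI/R-HNK mice, 0.887, 1.23 and 1.90 CPM in the SNI/saline mice and 1.64, 1.65 and 3.07 CPM in the Sham/saline mice. Per kilobase of exon Kl measured 0.201 CPM, Ttr 0.148 CPM and Folr1 0.0583 CPM. The 3 groups overlapped for Kl. Across libraries Kl was closest to Ccdc153 (Pearson r of log2 CPM 0.82, 9 libraries) and not to Ttr (0.01) or Folr1 (0.10), as a description with no test.

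The label of choroid plexus found little support in other genes of that epithelium. Of 35 further choroid plexus genes, 26 held enough counts to be tested. The transcription factor Otx2 was listed at 0 in 6 of 9 libraries and measured 0.419 CPM in SNI/R-HNK replicate 1 and 0.348 and 0.582 CPM in Sham/saline replicates 2 and 3, and the potassium channel Kcnj13 reached at most 0.366 CPM. The tight junction gene Cldn2 reached at most 0.226 CPM and the bicarbonate transporter Slc4a5 at most 0.155 CPM. The summed level of the 35 genes, 229 to 287 CPM, came mostly from Enpp2, which measured 157 to 192 CPM and is also made by oligodendrocytes.

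**Figure D2:**
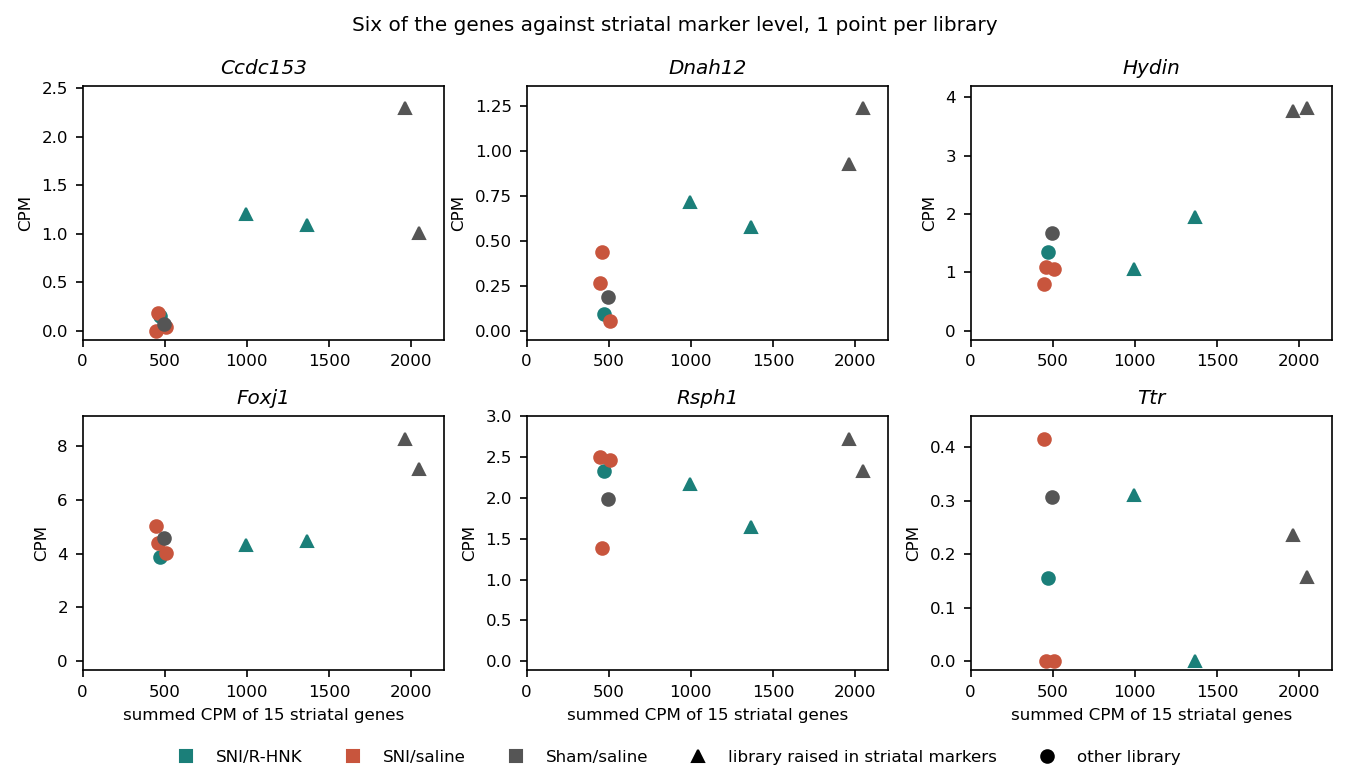
CPM of 6 of the genes (vertical axes) against the summed CPM of 15 striatal medium spiny neuron genes (horizontal axes), 1 point per library, coloured by group. Ccdc153 and Dnah12 separate the 4 libraries with 996 to 2050 CPM of striatal genes from the other 5, Hydin and Foxj1 stand high in the 2 Sham/saline libraries at 1960 and 2050 CPM, and Rsph1 and Ttr show no such separation.

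The first comparison asks what nerve injury changed in saline-treated mice. Hydin was lower in SNI/saline mice, at 0.983 ± 0.159 CPM, than in Sham/saline mice, at 3.08 ± 1.22 CPM (SD, n = 3 each). Its log2 fold change was -1.65 ± 0.35 (SE, edgeR quasi-likelihood test, adjusted p = 0.0458). DESeq2, which called 1138 genes in this comparison where edgeR called 233, gave an adjusted p of 0.000978 for Hydin. It gave no adjusted p for Ttr and Folr1. Hydin was the 1 gene of the 9 tested that passed by edgeR, against 1.07% of all 21765 genes in either direction and 0.556% as lower. An unadjusted p under 0.05 was found for 3 of the 9 (Hydin, Foxj1 and Ccdc153), against 16.6% of all genes. The median log2 fold change of the 9 was -0.75, beside -0.02 over all genes. The groups did not overlap for Hydin alone, a separation that 21.7% of all genes had.

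The Hydin result rested on few libraries. The adjusted p missed the threshold without Sham/saline replicate 2 (0.175) or 3 (0.178), without SNI/saline replicate 1 (0.10), 2 (0.203) or 3 (0.134), and without SNI/R-HNK replicate 1 (0.0622). It also missed the threshold when the 2 compared groups were fitted alone (0.0504). With the striatal marker score as a covariate the log2 fold change was -0.97 (adjusted p = 0.477), and with the 4 striatal-rich libraries left out it was -0.76 (adjusted p = 0.723), set against Sham/saline replicate 1 alone. Beside it, all 15 striatal genes had negative fold changes, with 12 at an unadjusted p under 0.05 (16.6% of all genes did). Of the 15, 0 passed by edgeR, which called 233 genes in all, and 8 by DESeq2, which called 1138. The genes of the subventricular zone, the stem cell layer beneath the ependyma, were read as well. By edgeR 8 of 15 were lower in SNI/saline mice, as were 0.556% of all genes. Their sum was 170 to 178 CPM in SNI/saline mice and 268 to 349 CPM in Sham/saline mice. Of 12 fibroblast genes of the meninges and vessels 3 were lower by edgeR, beside the same 0.556% of all genes. Their sums were 72.0 to 78.4 CPM in SNI/saline mice and 102 to 128 CPM in Sham/saline mice. The part of each cell type in the Hydin result was not tested.

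The other 8 tested genes did not pass between SNI/saline and Sham/saline mice. Foxj1 had a log2 fold change of -0.57 ± 0.21 (adjusted p = 0.190), and without Sham/saline replicate 1 it passed (-0.77, adjusted p = 0.0265). Ccdc153 had -3.86 ± 1.43 (adjusted p = 0.236) and 0.13 with the 4 striatal-rich libraries left out. Dnah12 had -1.62 ± 0.86 (adjusted p = 0.375) and 0.43 without them. The fold changes of Rsph1, Dynlrb2, Ttr, Folr1 and Kl ran from -0.81 to 0.06, with adjusted p from 0.402 to 0.987 by edgeR's quasi-likelihood test. With 3 mice against 3, an exact permutation test of a single gene cannot go below p = 0.1.

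**Figure D3:**
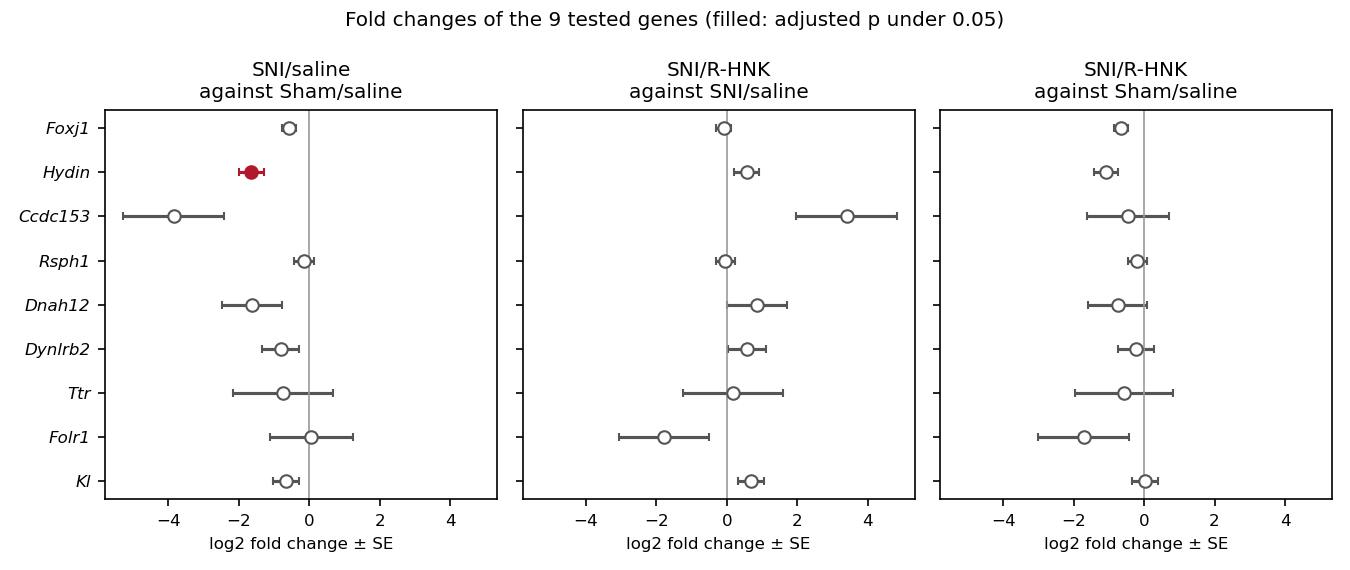
Log2 fold change ± SE (horizontal axes) of the 9 tested genes in the 3 comparisons, first-named group over second; filled red marks an adjusted p under 0.05 by edgeR. Hydin in SNI/saline against Sham/saline mice is the 1 filled point, and the error bars of Ccdc153, Ttr and Folr1 span more than 2 log2 units.

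The second comparison asks what R-HNK changed in injured mice. Of the 9 genes 0 passed between SNI/R-HNK and SNI/saline mice by edgeR and 0 by DESeq2, beside 0.119% of all genes by edgeR. No group pair was free of overlap, a separation that 13.7% of all genes had. Ccdc153 was the 1 gene with an unadjusted p under 0.05, against 7.47% of all genes, at 0.817 ± 0.576 CPM in SNI/R-HNK mice and 0.0738 ± 0.0992 CPM in SNI/saline mice (SD, n = 3 each). Its log2 fold change was 3.40 ± 1.43 (edgeR adjusted p = 0.650), and 1.03 with the 4 striatal-rich libraries left out, which leaves SNI/R-HNK replicate 2 alone. Beside it, the striatal genes summed to 469 to 1366 CPM in SNI/R-HNK mice and 449 to 506 CPM in SNI/saline mice. Of the 15 subventricular zone genes 5 rose, with sums of 266 to 290 CPM in SNI/R-HNK mice and 170 to 178 CPM in SNI/saline mice. Their part in the Ccdc153 value was not tested. Hydin measured 1.45 ± 0.452 CPM in SNI/R-HNK mice and 0.983 ± 0.159 CPM in SNI/saline mice (log2 fold change 0.56 ± 0.35, edgeR adjusted p = 0.725). Kl had a log2 fold change of 0.68 ± 0.37 (adjusted p = 0.698), and Foxj1 of -0.08 ± 0.21 (adjusted p = 0.951).

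The third comparison sets treated injured mice against sham mice. Of the 9 genes 0 passed by edgeR and 0 by DESeq2, beside 0.00459% of all genes by edgeR, which is 1 predicted gene (Gm6344). Foxj1 and Hydin had unadjusted p under 0.05, as did 3.53% of all genes, with log2 fold changes of -0.66 ± 0.21 and -1.08 ± 0.34 (edgeR adjusted p = 1.00 for each). Foxj1 did not overlap between SNI/R-HNK and Sham/saline mice, and neither did Folr1, a separation that 8.85% of all genes had. For Foxj1 the gap was narrow, from 4.47 CPM in SNI/R-HNK replicate 3 to 4.60 CPM in Sham/saline replicate 1. For Folr1 both libraries at the gap, SNI/R-HNK replicate 2 and Sham/saline replicate 2, had 6 counts (0.0929 and 0.104 CPM). Its separation thus rested on library size near the limit of detection. Ccdc153 measured 0.817 ± 0.576 CPM in SNI/R-HNK mice and 1.12 ± 1.12 CPM in Sham/saline mice, and Kl 2.15 ± 0.797 CPM in SNI/R-HNK mice and 2.12 ± 0.824 CPM in Sham/saline mice (SD, n = 3 each). The comparisons share samples, so their fold changes are not independent of each other.

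Beyond these 10 genes, 105 further genes of motile cilia were read from 4 lists, and 99 of them were tested. In SNI/saline against Sham/saline mice none passed by edgeR, 22 had an unadjusted p under 0.05 (16.6% of all genes did), and DESeq2 called 4, of 1138 that it called over all genes. The median log2 fold change was -0.36, and 80 of 99 values were negative. Among the regulators of multiciliated cells, Rfx3, a partner of FOXJ1, measured 48.4 ± 6.15 CPM in SNI/saline mice and 65.9 ± 9.27 CPM in Sham/saline mice (log2 fold change -0.45 ± 0.12, edgeR adjusted p = 0.10). Ccno, which acts in the making of basal bodies, measured 0.905 ± 0.0759 CPM in SNI/saline mice and 1.54 ± 0.445 CPM in Sham/saline mice (-0.76 ± 0.29, edgeR adjusted p = 0.220). Rfx3 is also expressed in neurons, and its level was far above that of Foxj1 per kilobase of exon, at 5.24 CPM.

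Dynein genes were not uniform. The heavy chain Dnah7b had a log2 fold change of -0.67 ± 0.20 (edgeR adjusted p = 0.118) and Dnah2 of -0.74 ± 0.25 (adjusted p = 0.162). Dnah11, a heavy chain of the outer arms, measured 0.383, 0 and 0.249 CPM in SNI/saline mice and 3.73, 5.14 and 1.89 CPM in Sham/saline mice, with no overlap. Its SNI/R-HNK values were 0.972, 4.63 and 0.234 CPM, so the highest injured library was SNI/R-HNK replicate 2, which is not raised in striatal markers. Lrrc6, a cytoplasmic factor in dynein arm assembly, measured 7.48 ± 0.732 CPM in SNI/saline mice and 4.93 ± 0.389 CPM in Sham/saline mice (0.60 ± 0.15, edgeR adjusted p = 0.0696). DESeq2 called Rfx3, Dnah7b, Dnah11 and Lrrc6, with adjusted p of 0.0184, 0.0371, 0.0490 and 0.00697.

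Among radial spoke, central pair and nexin link genes, Spag17, a central pair protein, measured 0.0855 ± 0.0750 CPM in SNI/saline mice and 0.517 ± 0.247 CPM in Sham/saline mice (edgeR adjusted p = 0.190). Ccdc146 measured 0.0549 ± 0.0478 CPM in SNI/saline mice and 0.382 ± 0.299 CPM in Sham/saline mice (edgeR adjusted p = 0.179). Of the other axoneme and ependymal genes, Fam216b was listed at 0 in all 3 SNI/saline mice and measured 0, 0.714 and 0.928 CPM in Sham/saline mice. The ependymal gene 1700012B09Rik was listed at 0 in all 3 SNI/saline mice too. It measured 0.0675, 0.387 and 0.109 CPM in SNI/R-HNK mice and 0.684, 0.139 and 0.309 CPM in Sham/saline mice (edgeR adjusted p = 0.0535 between SNI/saline and Sham/saline mice). It was thus highest in libraries that are not raised in striatal markers, unlike Ccdc153.

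Against SNI/saline mice, SNI/R-HNK mice had a median log2 fold change of 0.17 over the 99 genes. None passed by edgeR, 11 had an unadjusted p under 0.05 (7.47% of all genes did), and DESeq2 called 1 (1700012B09Rik, adjusted p = 0.0317), of 136 over all genes. Against Sham/saline mice the SNI/R-HNK median was -0.13, none passed by edgeR or DESeq2, and 2 had an unadjusted p under 0.05 (3.53% of all genes did). Of the 99 genes 9 were higher in all 4 libraries raised in striatal markers than in the other 5, and 1, Spag6, was lower in all 4. These shares, 9.09% and 1.01%, stand beside 5.12% and 4.26% of all genes. The 9 were Ccno, the dynein heavy chains Dnah1 and Dnah6, and Spag16, Cfap43, Cfap44, Ak7, Lrrc23 and Daw1.

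**Figure D4:**
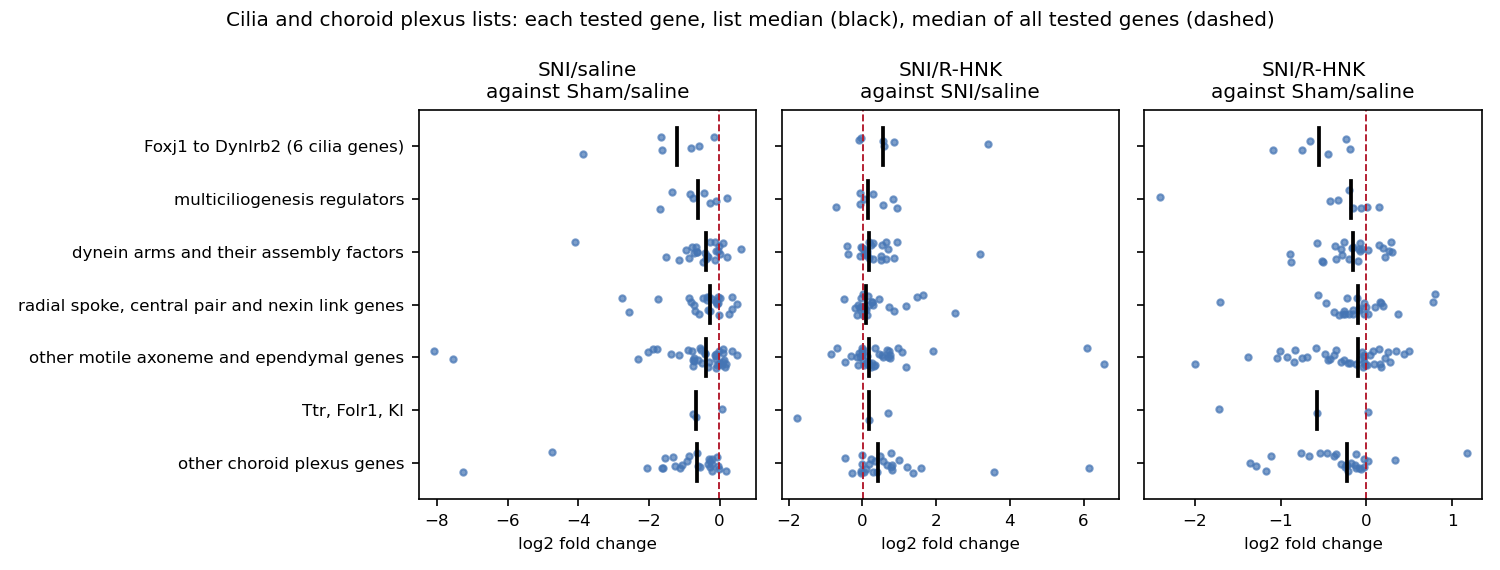
Log2 fold changes (horizontal axes) of every tested gene of the cilia and choroid plexus lists in the 3 comparisons; black bars are list medians and the dashed line is the median of all tested genes. For SNI/saline against Sham/saline mice every list median is below the dashed line, at -1.22 for the 6 cilia genes and -0.63 for the other choroid plexus genes, with wide spread inside each list.

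The 26 tested choroid plexus genes beyond Ttr, Folr1 and Kl had a median log2 fold change of -0.63 in SNI/saline against Sham/saline mice. None passed by edgeR, 11 had an unadjusted p under 0.05 (16.6% of all genes did), and DESeq2 called 4 of its 1138, Aqp1 and Clic6 among them. Clic6, a chloride channel-like protein of choroid epithelium, measured 0.122, 0 and 0.140 CPM in SNI/saline mice and 0.222, 3.10 and 3.84 CPM in Sham/saline mice (edgeR adjusted p = 0.125). Its SNI/R-HNK values were 1.16, 0.387 and 1.62 CPM, so all 4 libraries raised in striatal markers lay above the other 5. Of the 26 genes 3 had this separation (11.5%), Clic6, Car12 and Wfikkn2, beside 5.12% of all tested genes. Aqp1, a water channel of that epithelium, was highest in Sham/saline replicate 1 at 3.57 CPM, with means of 0.482 ± 0.187 CPM in SNI/saline mice and 2.02 ± 1.34 CPM in Sham/saline mice (edgeR adjusted p = 0.131).

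In SNI/R-HNK against SNI/saline mice none of the 26 passed by edgeR or DESeq2 (3 with an unadjusted p under 0.05 beside 7.47% of all genes, median 0.43). Between SNI/R-HNK and Sham/saline mice none passed by edgeR or DESeq2 either (3 with an unadjusted p under 0.05 beside 3.53% of all genes, median -0.23). Lbp, a lipopolysaccharide-binding protein, had a log2 fold change of -1.36 ± 0.40, and Prlr, the prolactin receptor, 0.897 ± 0.395 CPM in SNI/R-HNK mice and 0.399 ± 0.0796 CPM in Sham/saline mice (edgeR adjusted p = 1.00 for each).

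The genes whose levels over the 9 libraries were most like the mean of the 6 tested cilia genes were Vcam1 (Pearson r 0.98), Amotl1, Plcxd3, Cald1, Akap9, Man1a, Fam184b and Fzd5 (0.96). All of these but Man1a were higher in every library raised in striatal markers than in the other 5. Of all tested genes 5.12% had this separation. The cilia mean was itself highest in those 4 libraries, so choosing genes by likeness to it favoured this separation. The mean of the cilia genes, each centred and scaled to its own SD, was highest in Sham/saline replicate 3 (1.42) and 2 (0.82), followed by SNI/R-HNK replicates 1 (0.22) and 3 (0.05). It was lowest in the 3 SNI/saline mice, from -0.69 to -0.55. Of the 3 choroid plexus genes, Ttr and Folr1 rest on few counts. The 3 did not vary together, with a Pearson r of -0.52 to 0.10 between pairs, so their mean describes no shared pattern. The genes most like that mean were Zc3h6 (0.94), F2r, Col25a1, Btbd7, Plcb2, S100pbp, Psmc3ip and Fam135a (0.91). These likenesses are descriptions over 9 libraries that differ in depth and in striatal marker level, and they were not tested.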

How the data were processed

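RNA of 9 prelimbic cortex samples was sequenced on an Illumina instrument, per the labels. The submitters' processing notes name HISAT2 2.0.5, featureCounts 1.5.0-p3 and mm10, while StringTie stands in the title of the deposited file. Which tool made the values is therefore uncertain, and the deposited values were taken to be expected counts (estimated counts per symbol). They are whole numbers with unequal library totals, so rounding changed nothing. Strand and pair settings are not given in the sources used here. In all, 20334 rows were 0 in every library.

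The test was run with edgeR 4.0.16 (R 4.3.3): filterByExpr by group (21765 genes kept), TMM factors 0.979 to 1.03, and a robust quasi-likelihood fit with 1 mean per group over all 9 libraries. P-values were adjusted over all genes by Benjamini-Hochberg. The SE was worked back from the test statistic. CPM use TMM-scaled sizes, and log2 CPM a prior count of 2. The fit was tested on simulated counts. Exon lengths come from GENCODE M21 (GRCm38).

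Genes were named by a rule: all 10 genes, up to 4 per list and comparison by smallest p (some are given only in counts), the 8 most alike genes, paralogs and striatal marks. Choroid markers near 0, and Gm26832, were named after their values were seen. The genes, 11 lists and the 4 libraries set apart were chosen with earlier results of these data known. Other settings were RLE and upper-quartile scaling, no filter, DESeq2 1.42.0, a replicate block, the 2 compared groups alone, a striatal score as covariate, and libraries left out. Reading them for the 105 other cilia genes was added after seeing the data.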

Additional observations from a re-analysis of the deposited data

How the results depend on the processing

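Hydin in SNI/saline against Sham/saline mice kept its direction in all 17 other settings and its call in 7 of them. Genes from the list of 10 called in that comparison numbered 0 with the replicate block (Hydin -1.57, adjusted p = 0.0615), 0 with the 2 compared groups alone, 0 with the striatal covariate, 0 without the 4 libraries raised in striatal markers, and 0 to 2 when 1 library was left out (2 without Sham/saline replicate 1, Hydin and Foxj1). In the other comparisons no setting called any of them. Other motile cilia genes called in SNI/saline against Sham/saline mice numbered 1 without the filter, 4 with DESeq2, 1 with the striatal covariate and 0 to 4 with 1 library left out, and 1 with DESeq2 in SNI/R-HNK against SNI/saline mice.

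Over all genes, 233 were called in SNI/saline against Sham/saline mice, with 370 without the filter, 1138 with DESeq2, 94 with the striatal covariate, 86 without the 4 libraries and 60 to 1170 with 1 left out. Between SNI/R-HNK and SNI/saline mice 26 were called, with 136 by DESeq2, 16 with the replicate block, 53 with the 2 groups alone and 7 to 56 with 1 left out. Between SNI/R-HNK and Sham/saline mice 1 was called, with 11 by DESeq2, 2 with the replicate block, 25 without the 4 libraries and 1 to 11 with 1 left out.

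Of 456 fold changes of the 9 genes under other settings, 32 turned in sign, none of them called. In SNI/saline against Sham/saline mice these were Folr1 with the replicate block (-0.017) and the striatal covariate (-0.025), Dnah12 with the covariate (0.74), and without the 4 libraries Ccdc153 (0.13), Rsph1 (0.10) and Dnah12 (0.43). In SNI/R-HNK against SNI/saline mice these were Dnah12 with the covariate (-0.90), and without the 4 libraries Rsph1 (0.14) and Dnah12 (-1.43). In SNI/R-HNK against Sham/saline mice these were Ccdc153 with the covariate (0.78), and without the 4 libraries Ccdc153 (1.16), Rsph1 (0.24) and Kl (-0.19). With 1 library left out, ranges that crossed 0 in SNI/saline against Sham/saline mice were -0.71 to 0.67 for Folr1 and -0.29 to 0.086 for Rsph1. For SNI/R-HNK against SNI/saline mice they were -0.82 to 6.29 for Ttr, -0.28 to 0.094 for Rsph1 and -0.16 to 0.0078 for Foxj1. For SNI/R-HNK against Sham/saline mice they were -1.002 to 0.60 for Ccdc153, -1.56 to 0.00341 for Ttr, -0.29 to 0.39 for Kl and -0.50 to 0.14 for Dynlrb2. The cause was not tested.

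Same-numbered mice did not deviate together (correlations -0.10 to 0.09), and 3 of 9 libraries correlated best with their own number, so the numbers were not taken as pairs. The few counts of Ttr, Folr1 and Tmem212 limit what these libraries can show.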
